A study of Mus musculus with 12 samples.

Results

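Spinal cord RNA of mice in which Gfap-Cre had both Tardbp alleles to delete was compared, gene by gene, with that of floxed mice without Cre. The genes described are those whose mean in the 8 mice of these groups reached 1 TPM, 15285 of the 36121 genes in the table. TPM is transcript abundance per fixed total, scaled for transcript length, here in the authors' normalized form. A further 10329 genes were listed at 0 in all 8 mice, and 10507 lay between 0 and the minimum. At the edge of the minimum, Wnt9a was just inside with a mean of 1.01 TPM in control and 0.992 in cKO, and Slc23a4 was just outside with 1.10 and 0.901 TPM. Ighj3 was also just inside because cKO replicate 2 held 8.02 TPM, while the other 7 mice were listed at 0.

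The study held 12 mice of strain C57BL6, 3 months old, with 4 mice in each of 3 groups. Control mice were Tardbp-fl/fl and carried no Cre. The cHet mice were Gfap-Cre; Tardbp-fl/+ and the cKO mice Gfap-Cre; Tardbp-fl/fl, so that every mouse carried at least a single floxed allele. Gfap-Cre is a recombinase under the promoter of the astrocyte filament gene Gfap, and it acts in any cell that uses this promoter or descends from a cell that did. Control mice lacked Cre, so Cre itself and the loss of both alleles cannot be told apart in cKO against control; the cHet values, which share the same controls, are given beside some results. The sources used here name no Cre line, floxed exon, cord level, batch or litter. Each library came from a whole-tissue sample of a separate mouse, and in such bulk RNA fewer cells of a type and less RNA per cell cannot be told apart.

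TDP-43, the product of Tardbp, is a nuclear RNA-binding protein that binds UG-rich sequence, represses cryptic exons, sustains the splicing of transcripts with very long introns and limits its own messenger RNA. It leaves the nucleus and aggregates in motor neurons and glia of most patients with amyotrophic lateral sclerosis. Astrocytes clear glutamate and potassium from around synapses, store glycogen and pass lactate to neurons, secrete factors that shape synapses, and take on reactive states in injured cord. They also exchange signals with microglia, the resident macrophages, and with oligodendrocytes, which make myelin.

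Between 15229 and 15384 genes reached 1 TPM in each of the 8 libraries, and Pearson's r between the log2 values of any pair across genes, which are not independent replicates, was 0.981 to 0.986. On the first principal component (21.5% of the variance) mice had control scores of -15.8 to -10.2 and cKO scores of 9.67 to 17.7. Normalized TPM summed to 954895 to 978621 in control and to 1017860 to 1048380 in cKO (exact permutation p = 0.0286, two-sided, the smallest that 4 against 4 mice allow). TPM keeps no read depth, so depth is unknown. Y-linked genes went against the sex label of control replicate 1, labelled male. Its library held 0.288 TPM of Ddx3y, against 30.5 to 36.5 TPM in the other 5 mice labelled male and 0.336 to 1.15 TPM in the 6 labelled female. Uty, Kdm5d and Eif2s3y of that library, at 0.6004, 0.946 and 0.658 TPM, lay within or below the range of females. Its Tardbp was at the control level, and the list counts below are also given without it where they then differ.

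Tardbp itself (chromosome 4, 148612382 to 148627019, minus strand, GRCm38) was lower in every cKO mouse than in every control mouse. It was measured at 181, 167, 169 and 166 TPM in control and 150.3, 150.2, 151 and 140.5 TPM in cKO. Its log2 change was -0.20 ± 0.04 (SE; limma adjusted p = 0.0114), and it kept the call under all 20 alternatives. The cHet mice held 178, 173, 172 and 158 TPM, in the range of control apart from the lowest mouse. Cells outside the Cre lineage also express Tardbp in whole cord, and RNA of a recombined allele may still count towards this level.

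Many genes changed by small amounts and few by large ones. Limma called 1372 of the 15285 genes at an adjusted p under 0.05 (8.98%), of which 878 were higher (5.74%) and 494 lower (3.23%) in cKO. At an unadjusted p under 0.05 it had 3482 of the 15285 genes, in both directions together. All fold changes here are on the log2(TPM + 0.5) scale, which understates the change of genes near 1 TPM. The median size of a called log2 change was 0.27, and 150 called genes changed by at least 1.5-fold (0.981%), 98 higher and 52 lower. Only 22 rose and 16 fell by at least 2-fold. All 4 cKO mice lay above all 4 control mice for 1606 genes (10.5%) and below them for 1005 genes (6.58%), and this separation held for 846 of the called rises and 467 of the called falls. Without control replicate 1, limma called 1033 genes, 691 higher and 342 lower. Wherever the values of all 8 mice of a gene are printed below, in the order of replicates 1 to 4, the groups do not overlap unless this is said. How the calls divided between rises and falls changed with the scaling between libraries, which gave 698 rises and 575 falls with median-of-ratios factors, and 473 rises and 820 falls when libraries were rescaled without their mitochondrially encoded genes. The median log2 change of all genes was 0.01 on the deposited scale, -0.00 after the first rescaling and -0.04 after the second.

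**Figure D1:**
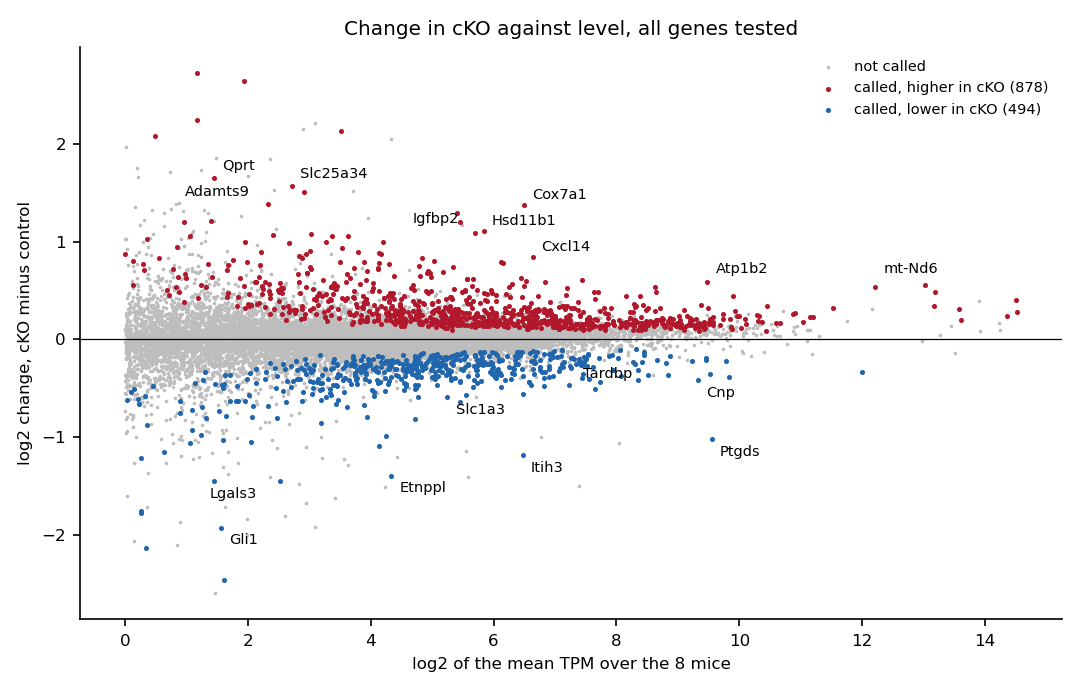
Each point is a gene tested, with the log2 of its mean TPM over the 8 mice on the horizontal axis and its log2 change, cKO minus control, on the vertical axis; called rises (878) are red and called falls (494) blue. The largest changes lie among genes of low and middle level, where Qprt and Gli1 are the highest and lowest called genes with a full name (the points beyond them are called genes of predicted name or genes not called), while the called changes of genes at 100 TPM or more are small and mostly upward.

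The share of genes called grew with their level. It was 3.27% of the 3430 genes at 1 to 5 TPM and 25.8% of the 1525 genes at 100 TPM or more, where the median SE of a log2 change was 0.04 against 0.16 in the lowest class. Of the calls at 100 TPM or more, 308 were higher and 86 lower. The low class held 64 of the 150 changes of at least 1.5-fold and the high class 3. By the likelihood ratio test in the authors' deposited table, q was under 0.05 for 1687 of 17916 genes (9.42%) and by its Wald test for 1822 (10.2%). Of the limma calls, 84.6% had a likelihood ratio q under 0.05 in the authors' deposited table, and 70.3% of its 1652 calls that were tested here were limma calls. Of those 1652 genes, 1651 had the same direction by the Wald estimate in the authors' deposited table and by limma.

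Among genes with a full name, Qprt and Slc25a34 had the largest called rises. Qprt, whose enzyme turns quinolinate into a precursor of NAD, (chromosome 7, 127107114 to 127122226, minus strand) was at 1.01, 0.609, 1.47 and 1.24 TPM in control and 5.04, 3.67, 4.27 and 4.53 TPM in cKO (log2 change 1.65 ± 0.20, limma adjusted p = 0.000369). The mitochondrial carrier gene Slc25a34 was at 3.65, 2.98, 3.11 and 2.59 TPM in control and 11.1, 9.52, 9.71 and 9.87 TPM in cKO, and Pm20d1, a secreted enzyme that joins fatty acids to amino acids, at 3.40, 3.15, 3.58 and 4.53 TPM in control and 12.99, 9.18, 12.7 and 10.4 TPM in cKO. No control mouse reached the lowest cKO mouse for any of these. Adamts9, a metalloprotease that cleaves proteoglycans, was at 3.16, 2.58, 2.02 and 2.58 TPM in control and 7.97, 7.46, 7.49 and 7.05 TPM in cKO. Cox7a1, a subunit of cytochrome c oxidase known from muscle, was at 51.7, 44.0, 46.1 and 59.1 TPM in control and 129.7, 140.1, 138 and 114 TPM in cKO. The cHet mice held 57.3, 73.1, 70.2 and 64.7 TPM, all below the cKO mice and 3 of them above every control mouse.

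Among the other large rises, Hsd11b1, whose enzyme regenerates active glucocorticoid (chromosome 1, 193221634 to 193264075, minus strand), was at 36.7, 33.9, 37.3 and 36.3 TPM in control and 75.0, 85.2, 81.2 and 72.4 TPM in cKO (log2 change 1.11 ± 0.06, limma adjusted p = 2.31e-06). Igfbp2, which binds insulin-like growth factors, was at 32.8, 34.2, 28.2 and 36.9 TPM in control and 76.9, 64.3, 75.4 and 65.4 TPM in cKO. Papss2, which makes the sulfate donor for proteoglycan and steroid sulfation, was at 6.17, 6.58, 8.14 and 5.38 TPM in control and 13.5, 15.5, 14.4 and 12.9 TPM in cKO, and Gfpt2, the first step of hexosamine synthesis, at 2.69, 2.06, 2.52 and 2.37 TPM in control and 5.60, 4.58, 5.16 and 5.83 TPM in cKO. The groups stood well apart for both. Rasl12, a small GTPase of the Ras family, was at 6.37, 6.14, 5.92 and 6.63 TPM in control and 11.95, 12.1, 12.9 and 14.9 TPM in cKO. The spread within each group was small beside the difference. Gpnmb, a glycoprotein of activated phagocytes, rose by 1.21 on the log2 scale, Acox2, of peroxisomal bile acid and branched fatty acid oxidation, by 1.20, the hormone receptor gene Amhr2 by 1.07 and the cation channel gene Trpm5 by 1.07. The interferon-inducible gene Ifi27l2a rose by 1.06 and Olfm4, a secreted glycoprotein gene, by 1.03.

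Some of these rises come with a limit. Plac9b was at 19.4, 26.9, 23.1 and 32.9 TPM in control and 51.8, 67.5, 92.8 and 35.4 TPM in cKO, and Gm9780, a near-identical copy of it that can share reads, rose with it, so that neither level is certain. Sh3tc1 was at 1.11, 1.04, 1.17 and 1.14 TPM in control and 2.60, 4.76, 1.68 and 3.12 TPM in cKO, and its cHet mice held 2.58, 4.45, 2.11 and 2.61 TPM, as high as cKO (log2 difference from control 1.05, beside 1.06 for cKO). Sh3tc1 lost its call in 3 of 19 alternatives, and Olfm4 in 2 of 19. Of the 25 largest rises 5 have predicted names only, and 20 of the 25 kept the call under every alternative that tested them.

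The gene with the smallest p of all was Cxcl14, a chemokine expressed in astrocytes and other brain cells (chromosome 13, 56288643 to 56296551, minus strand). It was at 70.6, 71.2, 74.1 and 68.6 TPM in control and 124, 125, 127 and 136 TPM in cKO (log2 change 0.84 ± 0.04, limma adjusted p = 6.53e-07). Its cHet mice held 83.1, 79.2, 77.0 and 79.1 TPM, above every control mouse and below every cKO mouse. Dio2, the astrocyte deiodinase that activates thyroid hormone, was at 5.11, 5.18, 5.25 and 5.57 TPM in control and 10.1, 10.6, 10.7 and 9.10 TPM in cKO.

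Among genes with a full name, Gli1 had the largest called fall. Gli1, a transcription factor that hedgehog signalling switches on (chromosome 10, 127329882 to 127341974, minus strand), was at 2.98, 4.47, 6.22 and 6.11 TPM in control and 0.639, 0.608, 0.870 and 1.66 TPM in cKO (log2 change -1.92 ± 0.25, limma adjusted p = 0.000597). Etnppl, an astrocyte enzyme that breaks down phosphoethanolamine, was at 23.1, 27.0, 43.2 and 25.5 TPM in control and 9.05, 11.1, 11.2 and 11.5 TPM in cKO. For both genes the highest cKO mouse lay well below the lowest control mouse. Ptgds, prostaglandin D synthase of meninges and oligodendrocytes, was at 1030.3, 990.1, 1159 and 835 TPM in control and 526, 462, 454 and 533 TPM in cKO. Itih3, a secreted protein that binds hyaluronan, was at 108, 136, 132 and 118 TPM in control and 52.6, 50.1, 53.1 and 61.2 TPM in cKO, and A2m, a protease inhibitor, at 26.7, 25.7, 25.9 and 23.5 TPM in control and 13.8, 13.4, 12.97 and 10.4 TPM in cKO. These genes fell by 1.02, 1.18 and 0.99 on the log2 scale.

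Slc7a11, which imports cystine for glutathione synthesis in exchange for glutamate, was at 3.13, 3.21, 3.40 and 3.36 TPM in control and 1.43, 1.43, 1.36 and 1.44 TPM in cKO (log2 change -0.98 ± 0.10, limma adjusted p = 0.000165). Kcnj16, a subunit of the astrocyte inward potassium channel, was at 33.4, 34.3, 33.9 and 33.0 TPM in control and 19.2, 17.8, 19.7 and 19.3 TPM in cKO. Grin2c, the NMDA receptor subunit gene that astrocytes express, was at 7.55, 7.53, 7.71 and 6.003 TPM in control and 3.70, 3.84, 4.05 and 4.003 TPM in cKO. Control replicate 4 was the lowest control mouse for Grin2c, yet above every cKO mouse. Fgl2, a secreted fibrinogen-like protein, was at 3.39, 3.48, 3.17 and 3.17 TPM in control and 1.61, 1.69, 1.71 and 1.69 TPM in cKO. Rasal1, a Ras GTPase activator, was at 21.0, 23.6, 26.0 and 26.2 TPM in control and 12.1, 12.1, 10.7 and 9.44 TPM in cKO, and P4ha3, a collagen prolyl hydroxylase subunit, at 12.6, 10.997, 11.1 and 13.02 TPM in control and 6.26, 5.70, 7.19 and 6.32 TPM in cKO.

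Lgals3, a galectin of activated phagocytes, was at 6.91, 13.6, 4.67 and 10.04 TPM in control and 3.62, 2.50, 2.70 and 2.09 TPM in cKO, with a wide spread among the control mice; the call was lost in 4 of 20 alternatives (limma adjusted p 0.00990 to 0.0568). The melanocortin receptor gene Mc5r fell by 1.44 on the log2 scale, the lectin-like receptor gene Klri1 by 1.15, the leptin receptor gene Lepr by 1.03, the carbonic anhydrase gene Car3 by 0.92 and the transporter gene Abcc12 by 0.88. Ccdc3, Fam181a, Lgr6, a receptor for R-spondins, and Adgrg6, an adhesion receptor needed for Schwann cell myelination, fell by 0.79, 0.79, 0.79 and 0.75. The calls of Fam181a and Lgr6 were lost in 10 of 19 and 6 of 19 alternatives.

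**Figure D2:**
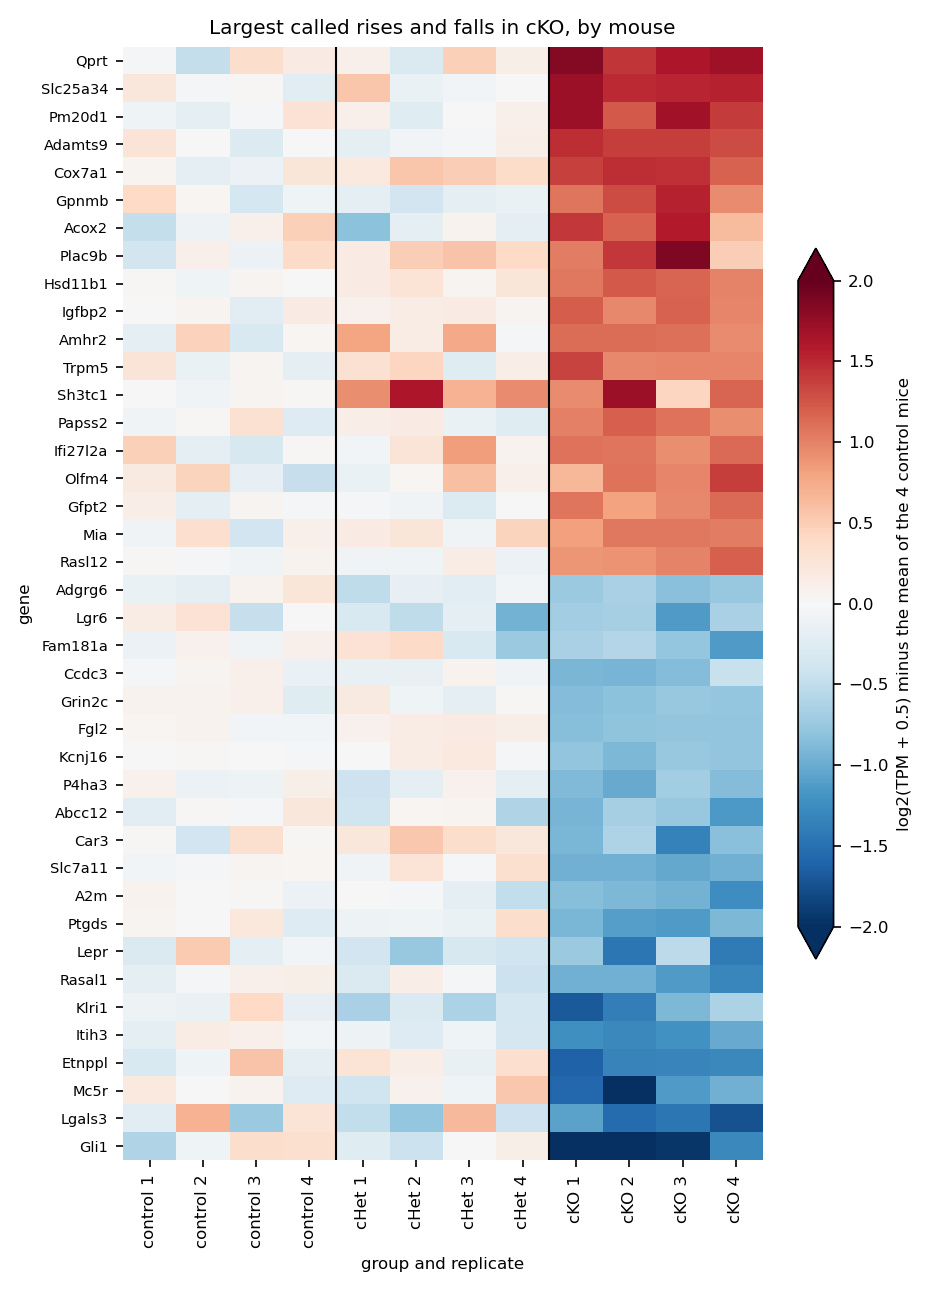
Colours give log2(TPM + 0.5) of each mouse minus the mean of the 4 control mice, for genes with a full name among the 25 largest rises and 25 largest falls; columns are the 12 mice by group and replicate. The cKO columns stand apart from control because the genes were chosen for that; most cHet cells are near 0, with Sh3tc1 as red in cHet as in cKO.

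Genes that define astrocytes moved in both directions. Of the 20 on the list, 5 rose and 3 fell, with a median log2 change of 0.11 against 0.01 for all genes tested. Without control replicate 1 the list had 4 rises and 3 falls, and with libraries rescaled without mitochondrially encoded genes 4 rises and 5 falls. The summed level of the list was 7667 to 8105 TPM in control and 8479 to 9070 TPM in cKO. Atp1b2, a sodium pump subunit of astrocytes, was at 595, 571, 562 and 551 TPM in control and 808, 841, 909 and 877 TPM in cKO (log2 change 0.59 ± 0.04, limma adjusted p = 1.41e-05). The lipid enzyme gene Acsbg1 and the glycolytic gene Aldoc, both astrocyte-enriched, rose by 0.38 and 0.34. Gja1, the main astrocyte connexin gene, fell by 0.26. Gfap was at 1199, 1092, 1212 and 1195 TPM in control and 1391, 1411, 1546 and 1216 TPM in cKO, where cKO replicate 4 was only just above the highest control mouse. The log2 change of Gfap was 0.24 ± 0.06 (limma adjusted p = 0.0386), and the call was lost in 12 of 20 alternatives, with adjusted p from 0.00742 to 0.110.

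Among 16 genes of glutamate, GABA and amino acid transport and metabolism, 2 rose and 4 fell (median -0.02). The main glutamate transporters of astrocytes went in opposite directions. Slc1a2 (chromosome 2, 102658659 to 102790784, plus strand) was at 322, 315, 323 and 327 TPM in control and 391, 390.1, 406 and 399.97 TPM in cKO (log2 change 0.30 ± 0.02, limma adjusted p = 1.59e-05), and Slc1a3 (chromosome 15, 8634124 to 8710764, minus strand) at 45.6, 46.3, 47.0 and 43.8 TPM in control and 29.6, 29.0, 30.4 and 31.8 TPM in cKO (log2 change -0.59 ± 0.04, limma adjusted p = 1.52e-05). In TPM, which is scaled for length, Slc1a2 stayed the more abundant of the pair in every mouse. Glul, glutamine synthetase, was at 1027, 1012, 1106 and 1000.2 TPM in control and 817, 779.99, 784 and 799 TPM in cKO, and all cKO mice were below all control mice. The GABA transporter gene Slc6a11 fell by 0.26, while Slc7a10, the serine and alanine exchanger, rose by 0.53. These counts were the same without control replicate 1 and under both rescalings.

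Of 14 genes of potassium, sodium and water handling, 3 rose and 1 fell. Among the rises were the sodium pump genes Atp1b2, described above, and Fxyd1 (0.28), and the fall was that of Kcnj16. Of 19 factors with which astrocytes shape synapses, 3 rose and 1 fell (2 and 0 without control replicate 1, 2 and 2 after rescaling without mitochondrially encoded genes). The glypican genes Gpc5, Gpc4 and Gpc6 rose by 0.34, 0.38 and 0.34, and Megf10, an engulfment receptor, fell by 0.21. Gpc6 lost its call in 11 of 19 alternatives, and Megf10 in 6 of 20.

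**Figure D3:**
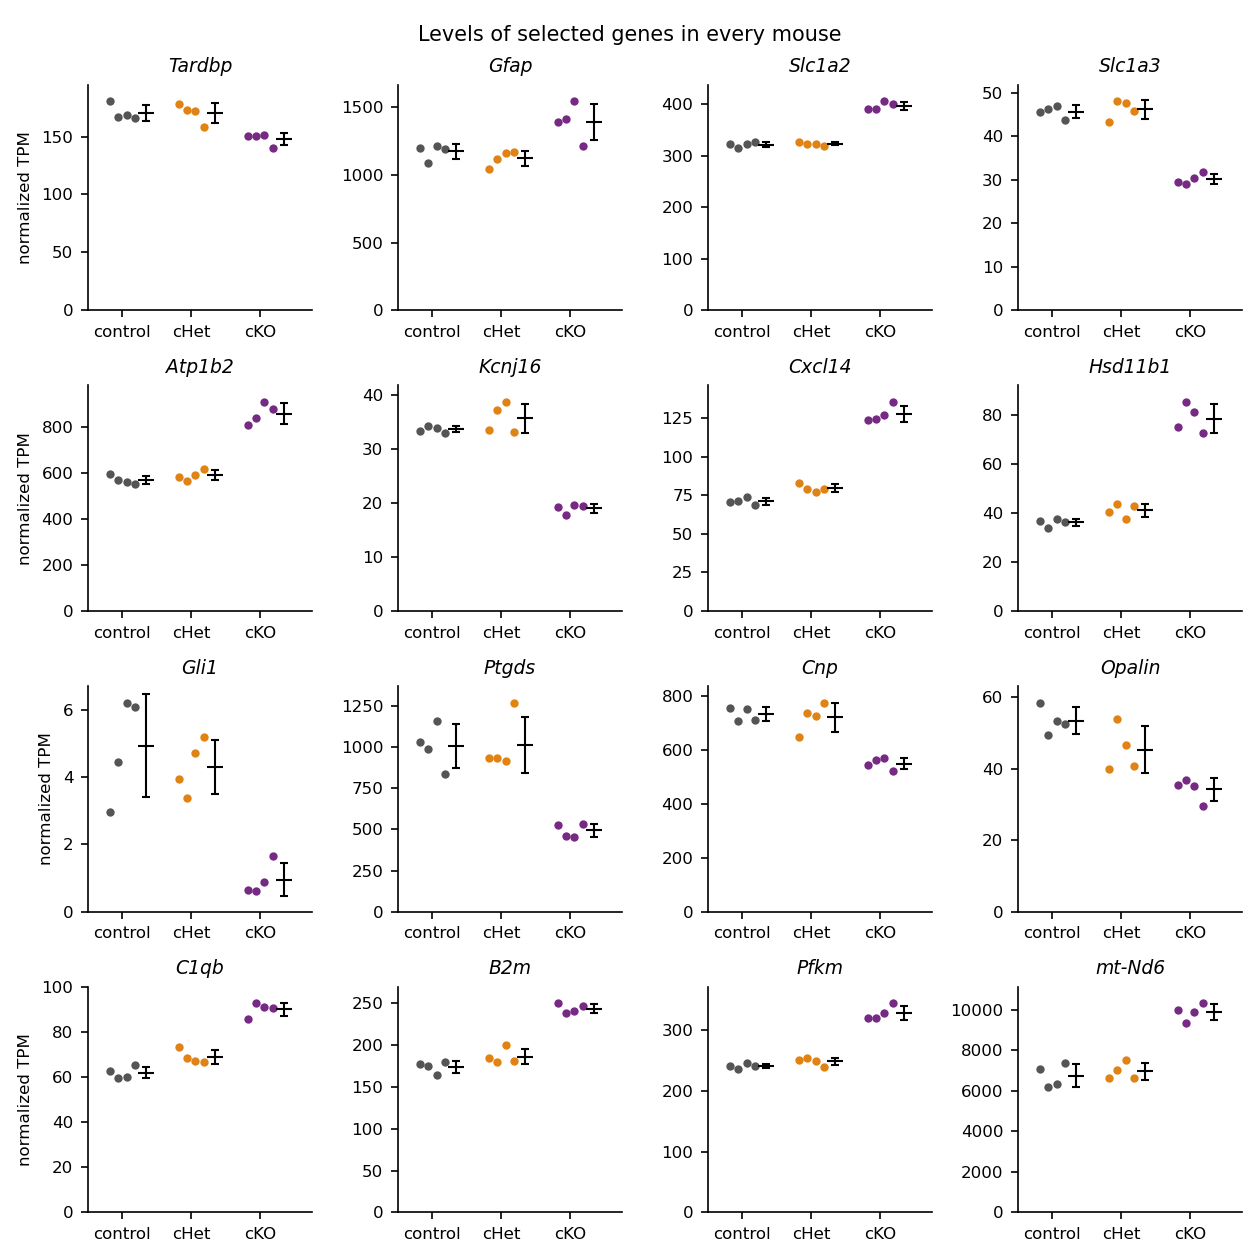
Each panel gives the normalized TPM of a gene in every mouse (points) by group, with the mean and SD of 4 mice beside them (bars), on axes that start at 0. Of the 16 genes shown, Slc1a3, Kcnj16, Gli1, Ptgds, Cnp, Opalin and Tardbp are lower in every cKO mouse than in every control mouse and the other 9 higher, Gfap by the narrowest margin.

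Reactive astrocyte genes rose in part. Of 12 pan-reactive genes tested, 4 rose and 0 fell (3 rose without control replicate 1). Serpina3n, a secreted protease inhibitor, was at 37.1, 40.05, 34.7 and 36.3 TPM in control and 50.03, 48.5, 51.2 and 58.6 TPM in cKO, and Aspg, a lysophospholipase-like gene, at 8.13, 7.18, 9.13 and 8.81 TPM in control and 11.3, 12.98, 12.6 and 12.5 TPM in cKO. The chaperone gene Hspb1 rose by 0.40. Of 11 A1-type genes, 4 rose and 0 fell, of which 3 rose without control replicate 1, and after rescaling without mitochondrially encoded genes only 1 rose. H2-D1, H2-T23 and Psmb8 belong to antigen presentation and Serping1 inhibits complement, and all of them are expressed in other cell types too. H2-D1 was at 79.4, 75.6, 80.4 and 75.4 TPM in control and 93.5, 97.5, 96.9 and 95.9 TPM in cKO. The calls of Serping1 and Psmb8 were lost in 8 of 20 and 8 of 20 alternatives. Of 8 A2-type genes 1 rose (12.5% called, against 8.98% of all genes tested). It was the membrane protein gene Emp1, at 4.58, 3.74, 4.75 and 4.99 TPM in control and 6.71, 6.50, 8.003 and 6.69 TPM in cKO.

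Part of the genes that define microglia rose. Of 14 homeostatic microglia genes, 7 rose and 0 fell, with a median log2 change of 0.29 and a summed level of 260.4 to 269.6 TPM in control against 315 to 339 TPM in cKO. Without control replicate 1 there were 5 rises, and after rescaling without mitochondrially encoded genes 4. Fcrls, an Fc receptor-like gene of mouse microglia, was at 8.84, 8.50, 6.98 and 8.20 TPM in control and 15.7, 12.98, 16.5 and 12.8 TPM in cKO. Cx3cr1, the fractalkine receptor, was at 17.5, 18.1, 16.9 and 18.1 TPM in control and 20.8, 21.99, 21.8 and 21.1 TPM in cKO, and Selplg, a selectin ligand, at 17.6, 19.2, 19.4 and 19.5 TPM in control and 23.2, 23.4, 23.2 and 23.6 TPM in cKO. The cKO mice were above the control mice for these, by less than 1.5-fold except for Fcrls. Tmem119, Siglech and Csf1r, the receptor for the growth factor on which microglia depend, rose by 0.36, 0.36 and 0.24.

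Of 20 genes of disease-associated microglia, 9 rose and 1 fell, with a median of 0.32 (8 and 1 without control replicate 1). Tyrobp, the signalling adaptor of microglial receptors, was at 44.1, 43.0, 44.6 and 42.2 TPM in control and 58.0, 69.9, 64.8 and 55.6 TPM in cKO, and the lysosomal protease gene Ctsd at 282, 284, 274 and 272 TPM in control and 349, 348, 355 and 349 TPM in cKO (log2 change 0.33 ± 0.02, limma adjusted p = 1.42e-05). Gpnmb and the lysozyme gene Lyz2 rose by 1.21 and 0.72, and Lgals3, which marks the same state, was the gene that fell. Among 25 lysosome genes, 11 rose and 1 fell (8 rose and 0 fell without control replicate 1, and 7 rose and 1 fell after rescaling without mitochondrially encoded genes). The cathepsin genes Ctss, at 84.2, 92.2, 92.8 and 88.5 TPM in control and 119, 123, 124 and 119 TPM in cKO, and Ctsb, at 355, 372, 365 and 345 TPM in control and 392, 401, 424 and 409 TPM in cKO, were among the rises. Complement genes rose in 6 of 14 cases and fell in none (5 without control replicate 1). The subunits of C1q, which microglia make, moved in step, with C1qa at 63.4, 58.6, 67.2 and 63.0 TPM in control and 90.3, 92.0, 104 and 88.8 TPM in cKO. C1qb was at 62.9, 59.9, 60.2 and 65.3 TPM in control and 85.8, 92.8, 91.1 and 90.9 TPM in cKO, and C1qc at 46.6, 49.2, 54.5 and 50.04 TPM in control and 64.8, 71.4, 69.8 and 71.3 TPM in cKO. Clu, an astrocyte lipoprotein and complement inhibitor, was at 581, 584, 588 and 576 TPM in control and 718, 729, 756 and 759 TPM in cKO (log2 change 0.35 ± 0.03, limma adjusted p = 1.52e-05).

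Genes of antigen presentation and the interferon response also rose in part. Of 17 MHC class I presentation genes, 7 rose and 0 fell, with a median of 0.25, and all 17 had a log2 difference above 0 on the deposited scale. B2m, the light chain of class I molecules, was at 178, 175, 164 and 179.6 TPM in control and 249.8, 238, 240.5 and 247 TPM in cKO (log2 change 0.48 ± 0.04, limma adjusted p = 2.56e-05), and H2-K1 at 41.9, 40.4, 42.5 and 39.9 TPM in control and 53.7, 48.4, 59.5 and 52.5 TPM in cKO. There were 5 rises without control replicate 1 and 3 after rescaling without mitochondrially encoded genes. Class I genes are a multigene family, so that reads of the close relatives can be split between them. Of 8 MHC class II presentation genes 1 rose (12.5% called), the cathepsin gene Ctss. Of 21 interferon response genes, 7 rose and 0 fell, with a median of 0.40 (6 rose without control replicate 1). Ifit1, which binds foreign RNA, was at 2.15, 2.04, 2.27 and 2.33 TPM in control and 2.89, 5.65, 4.21 and 3.97 TPM in cKO, where cKO replicate 1 was the lowest and replicate 2 the highest of its group. Oasl2 was at 5.10, 5.25, 3.75 and 6.35 TPM in control and 8.51, 12.9, 7.60 and 9.12 TPM in cKO. Ifi27 was at 137, 130.3, 128 and 150.2 TPM in control and 202, 210.2, 229.7 and 193 TPM in cKO. The levels of the first pair were low, and those of Ifi27 high in both groups. Ifit3 and Rsad2 rose by 0.79 and 0.77, and Lgals3bp by 0.34. Of 11 cytokine and NF-kB genes 1 rose, Cxcl14 (9.09% called, against 8.98% of all genes tested).

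The promoters of the interferon and class I genes are shown because members of these lists rose together. The letters GAAANNGAA, the core of the interferon-stimulated response element, were searched on both strands (TTCNNTTTC on the other) in the 250 bases before each start site in the RefSeq promoters of GRCm38.p6. They occur in 7.43% of the 11145 tested genes with such a promoter. They were found in 9 of the 17 interferon response promoters that had an entry and in 4 of the 15 class I promoters. Of these, 3 and 3 belonged to genes that rose, out of 5 and 7 genes that rose and had an entry. The rest of those 5 and 7 lack the letters in the bases searched. Bst2, Isg15, Oas1a, Stat2, Trim30a, Ifih1 and Erap1, which were not called, hold the letters too. The windows of the 6 genes that rose and hold a match are printed 5′ to 3′ on the strand of the gene. Matches are in capitals, which join where matches overlap.
Ifit1 (chr19:34640740-34640828, plus strand): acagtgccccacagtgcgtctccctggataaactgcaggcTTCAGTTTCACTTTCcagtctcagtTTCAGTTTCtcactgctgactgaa
Ifit3 (chr19:34583334-34583422, plus strand): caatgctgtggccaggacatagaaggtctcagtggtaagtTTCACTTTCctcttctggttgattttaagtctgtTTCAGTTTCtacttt
Rsad2 (chr12:26456523-26456611, minus strand): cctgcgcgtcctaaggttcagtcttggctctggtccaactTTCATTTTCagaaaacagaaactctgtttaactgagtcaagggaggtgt
B2m (chr2:122147508-122147596, plus strand): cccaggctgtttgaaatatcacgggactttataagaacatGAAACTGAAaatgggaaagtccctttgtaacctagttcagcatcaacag
H2-T23 (chr17:36032776-36032864, minus strand): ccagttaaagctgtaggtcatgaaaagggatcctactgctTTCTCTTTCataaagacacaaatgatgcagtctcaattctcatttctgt
H2-T22 (chr17:36042884-36042972, minus strand): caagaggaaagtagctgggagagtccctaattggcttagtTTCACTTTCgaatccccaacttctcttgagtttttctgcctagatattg
A match of these letters is a description of the sequence and not a shown binding site.

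Genes of hedgehog signalling, which in adult cord acts on astrocytes, did not all follow Gli1. Of 16 tested, 1 rose and 2 fell (0 and 2 without control replicate 1 and after rescaling without mitochondrially encoded genes). Hhip, a membrane protein that binds the ligand and a target of the pathway, was at 6.61, 6.37, 6.64 and 6.28 TPM in control and 4.77, 5.38, 4.11 and 3.65 TPM in cKO. Boc, a coreceptor, was at 5.49, 5.81, 5.89 and 5.56 TPM in control and 6.81, 6.66, 7.35 and 7.64 TPM in cKO, a rise lost in 6 of 20 alternatives, among them without control replicate 1. The Gli site GACCACCCA was searched in the same way and found in 0 of the 12 hedgehog promoters with an entry and in 0.197% of tested genes, so no such window is shown.

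Many genes of myelin fell. Of 20 mature oligodendrocyte and myelin genes, 0 rose and 12 fell, with a median log2 change of -0.35, and all 20 had a log2 difference below 0 on the deposited scale. Their summed level was 23637 to 24616 TPM in control and 19557 to 22295 TPM in cKO, and 10 fell without control replicate 1. Opalin, a membrane protein of myelinating cells, was at 58.4, 49.4, 53.4 and 52.6 TPM in control and 35.4, 36.7, 35.2 and 29.5 TPM in cKO (log2 change -0.64 ± 0.10, limma adjusted p = 0.00166), and Aspa, which breaks down N-acetylaspartate for lipid synthesis, at 104, 99.8, 110.5 and 109 TPM in control and 75.6, 69.3, 77.6 and 64.6 TPM in cKO. Every cKO mouse was below every control mouse for these and for Myrf, the transcription factor of myelination, at 54.8, 54.0, 55.7 and 52.6 TPM in control and 42.3, 41.9, 42.9 and 40.3 TPM in cKO. Cnp was at 754, 705, 751 and 712 TPM in control and 543, 562, 569 and 521 TPM in cKO and Mag, an adhesion protein between myelin and axon, at 864, 847, 785 and 804 TPM in control and 667, 629, 693 and 595 TPM in cKO. The cHet mice held 39.8, 53.9, 46.6 and 40.8 TPM of Opalin.

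Of 15 genes of precursors and newly formed oligodendrocytes, 0 rose and 4 fell (0 rose and 2 fell without control replicate 1). Sox10, the lineage transcription factor, was at 81.0, 76.8, 74.4 and 67.9 TPM in control and 55.8, 58.6, 63.1 and 50.8 TPM in cKO, and Enpp6, of newly formed cells, at 25.7, 29.8, 30.9 and 26.2 TPM in control and 20.8, 25.9, 22.9 and 21.4 TPM in cKO, where cKO replicate 2 overlapped control. The falls of Sox10, Enpp6 and Bcas1 were lost in 5 of 20, 9 of 20 and 7 of 20 alternatives. Of 23 cholesterol synthesis genes, 0 rose and 3 fell, with a median of -0.16; after rescaling without mitochondrially encoded genes 9 fell, with median-of-ratios rescaling 5, and without control replicate 1 only 1. The sterol carrier gene Stard4 was at 26.4, 27.3, 22.03 and 26.8 TPM in control and 17.8, 19.6, 18.1 and 21.2 TPM in cKO. The other falls were Fdft1, squalene synthase, by 0.25 and Srebf2, the regulator of the pathway, by 0.16. Of 14 genes of sterol efflux and lipoproteins, 3 rose and 1 fell (2 and 1 without control replicate 1), with the rise of Lcat, which esterifies cholesterol on lipoproteins, from 33.2, 30.5, 32.7 and 31.3 TPM in control to 41.2, 43.3, 45.0 and 40.7 TPM in cKO. Mylip, which degrades lipoprotein receptors, rose by 0.28, a call lost in 10 of 20 alternatives.

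Genes of energy metabolism rose more often than they fell. Of 24 genes of glycogen, glycolysis and lactate, 10 rose and 0 fell, with a median of 0.11 (9 rose without control replicate 1 and under either rescaling). Pfkm, a subunit of phosphofructokinase, was at 242, 236, 245 and 241 TPM in control and 319.7, 319.6, 329 and 344 TPM in cKO (log2 change 0.44 ± 0.03, limma adjusted p = 1.41e-05). Pygm, the muscle form of glycogen phosphorylase that astrocytes also use, was at 37.6, 34.8, 40.8 and 35.9 TPM in control and 54.8, 55.7, 57.5 and 61.7 TPM in cKO, in each of 2 rows of the table with equal values. Ldha and Ldhb, the lactate dehydrogenase subunits, were at 82.8, 89.6, 82.0 and 85.7 TPM in control and 107, 109, 107 and 117 TPM in cKO, and at 845, 833, 863 and 864 TPM in control and 978, 992, 988 and 989 TPM in cKO. All the cKO mice were above all the control mice for these. Pgk1, Eno1, Tpi1 and Pkm, which act between the hexose and pyruvate, rose by 0.19, 0.21, 0.16 and 0.09.

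Many respiratory chain genes rose. Mitochondrially encoded genes made up 16.04% to 18.3% of summed TPM in control and 19.0% to 20.4% in cKO (exact permutation p = 0.0286). Of the 13, 8 rose and 0 fell. The highest fold changes were those of complex I subunit genes, with mt-Nd6 at 7080.5, 6173, 6330.3 and 7375 TPM in control and 9973, 9342, 9862 and 10298 TPM in cKO, and mt-Nd5 at 3910.3, 3586, 3593 and 4406 TPM in control and 5605, 5237, 5728 and 5872 TPM in cKO. For mt-Co1, of complex IV, the values were 20934, 20486, 20378 and 23486 TPM in control and 26647, 25279, 24672 and 26846 TPM in cKO (log2 change 0.28 ± 0.05, limma adjusted p = 0.00825). Of 33 nuclear genes of complex I, 17 rose and 0 fell, with a median of 0.17 (14 rose without control replicate 1, 11 after rescaling without mitochondrially encoded genes). Ndufs3, of its core, was at 92.4, 87.4, 97.2 and 90.2 TPM in control and 105, 111, 109 and 109 TPM in cKO, also in each of 2 rows with equal values. Of 15 nuclear genes of complex IV, 9 rose and 0 fell (8 and 6 in the same alternatives). Cox7a1 and Cox8b, the isoforms known from muscle, rose by 1.37 and 0.89, and Cox8a, the common isoform, by 0.25. Atp5b, the catalytic subunit of the ATP synthase, was at 2567, 2575, 2739 and 2667 TPM in control and 3146, 3352, 3332 and 3323 TPM in cKO. In cHet the log2 differences from control were 0.08 for Ndufs3, 0.17 for Cox8a and 0.13 for Atp5b, none of them called. In cKO they were 0.25, 0.25 and 0.32.

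Of 24 genes of fatty acid synthesis and oxidation, 6 rose and 1 fell (5 and 1 without control replicate 1, 5 and 4 with median-of-ratios rescaling, 4 and 6 after rescaling without mitochondrially encoded genes). The rises were of oxidation enzymes, among them Acaa2, a mitochondrial thiolase, at 20.7, 19.4, 21.7 and 20.5 TPM in control and 28.6, 29.2, 29.3 and 32.5 TPM in cKO, and Cpt1a, which brings fatty acids into the mitochondrion, at 23.3, 22.6, 23.5 and 22.6 TPM in control and 28.6, 27.5, 29.4 and 27.5 TPM in cKO. The fall was that of Fads2, a desaturase, by 0.21. Of 13 genes of NAD and tryptophan metabolism 3 rose, Qprt, Cd38, which consumes NAD, by 0.38 and Naprt, of NAD synthesis from nicotinate, by 0.51. Of 21 glutathione and antioxidant genes, 8 rose and 0 fell (5 and 0 without control replicate 1, 5 and 1 with median-of-ratios rescaling, 4 and 1 after rescaling without mitochondrially encoded genes). Prdx6, a peroxidase of phospholipids, was at 287, 267, 305 and 262 TPM in control and 326, 358, 373 and 361 TPM in cKO. The superoxide dismutase gene of mitochondria, Sod2, rose by 0.32. Of 15 glucocorticoid and thyroid hormone genes 2 rose, Hsd11b1 and Dio2, and none fell (1 fell after rescaling without mitochondrially encoded genes).

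Most neuronal genes were not called, and the called neuron markers rose by small amounts. Of 17 neuron genes, 3 rose and 0 fell, with a median of 0.04. That is 17.6% called, against 8.98% of all genes tested and 25.8% of genes at 100 TPM or more. Rbfox3, a nuclear protein of neurons, was at 119, 112, 115 and 114 TPM in control and 131, 136, 126 and 138 TPM in cKO. The synaptic vesicle gene Syn1 rose by 0.20 and Slc32a1, the vesicular transporter of inhibitory transmitters, by 0.15, the latter lost in 9 of 20 alternatives. Of 13 motor neuron genes 1 rose (7.69% called), the nuclear receptor gene Esrrg, by 0.15 and not after rescaling without mitochondrially encoded genes. Motor neuron markers summed to 521 to 630.1 TPM in control and 586 to 671 TPM in cKO. Of 23 synaptic vesicle genes 3 rose and 0 fell (2 and 1 after rescaling without mitochondrially encoded genes), and Syt2, the calcium sensor of fast release, was at 415, 399, 388 and 413 TPM in control and 474, 469, 448 and 473 TPM in cKO. At an unadjusted p under 0.05, limma had 9 of these 23 vesicle genes higher and 1 lower, beside 3482 of all 15285 genes tested. Of 26 transmitter receptor genes 3 fell (2 without control replicate 1). They were Grin2c, Gria1 (by 0.28) and Grm3, the metabotropic glutamate receptor gene of astrocytes, at 14.5, 14.9, 15.4 and 14.6 TPM in control and 10.4, 11.1, 11.02 and 10.2 TPM in cKO.

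Genes tied to TDP-43 were measured at gene level, which shows no splicing. Of 13 genes listed for cryptic exons on TDP-43 loss, 2 rose and 1 fell (1 and 1 without control replicate 1 and with median-of-ratios rescaling, 1 and 3 after rescaling without mitochondrially encoded genes). Whether each of them has such an exon in mouse was not tested. Pfkp, the platelet form of phosphofructokinase, was at 191, 194, 198 and 210.2 TPM in control and 254, 239, 239.8 and 256 TPM in cKO (log2 change 0.32 ± 0.04, limma adjusted p = 0.000355). Adnp2 was at 6.88, 6.56, 7.02 and 6.28 TPM in control and 7.68, 7.68, 7.97 and 7.97 TPM in cKO, a rise lost in 14 of 20 alternatives, and the ubiquitin ligase gene Mib1 fell by 0.21, lost in 4 of 20. Of 14 long-intron targets 1 fell (7.14% called, against 8.98% of all genes tested). Of 22 genes of autophagy and of familial disease with TDP-43 inclusions, 3 rose and 1, Tardbp, fell, and the autophagosome genes Map1lc3b and Map1lc3a rose by 0.14 and 0.18. After rescaling without mitochondrially encoded genes that list had 0 rises and 2 falls, and neither of these genes was called.

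Part of the heat shock chaperones rose, and few other stress and cycle genes were called. Limma called 29.4% of the chaperone list, against 8.98% of all genes tested and 25.8% of genes at 100 TPM or more. Of 17 heat shock chaperones, 5 rose and 0 fell, with Hspa8 at 1295, 1264, 1190.3 and 1196 TPM in control and 1333, 1409, 1456 and 1383 TPM in cKO, and 3 rose without control replicate 1 and with median-of-ratios rescaling, and 1 after rescaling without mitochondrially encoded genes. The cHet mice held 1503, 1447, 1348 and 1405 TPM of Hspa8. Its log2 difference from control was 0.21 in cHet, not called there, beside 0.17 in cKO. For Hsph1 these were 0.17, not called, and 0.14. Of 18 genes of ER stress 1 rose (5.56% called), the secreted ER factor gene Manf, at 115, 127, 122 and 131 TPM in control and 139, 166, 175 and 151 TPM in cKO. Its cHet mice held 157, 187, 156 and 212 TPM, and its call was lost in 12 of 20 alternatives, among them leaving out control replicate 1 and both rescalings. Of 12 p53 targets 2 rose, Aen by 0.24 and Phlda3 by 0.17, neither after rescaling without mitochondrially encoded genes. Limma called 0 of 18 clock genes, 0 of 13 immediate early genes and 0 of 9 cell division genes, with 0, 2 and 1 of them at an unadjusted p under 0.05. Over all genes tested, 3482 of 15285 had such a p. The smallest p values in these lists belonged to Bhlhe40 (-0.11 ± 0.08) and Npas2 (-0.18 ± 0.14), to Egr3 (0.36 ± 0.13) and Junb (0.27 ± 0.11), and to Mcm3 (-0.33 ± 0.15) and Mcm5 (-0.23 ± 0.11), as log2 differences with SE.

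Across the 25 lists with rises and 0 falls, limma gave 6 of 415 entries a fall at an unadjusted p under 0.05. Across the 7 lists with falls and 0 rises, it gave 1 of 119 entries a rise. A gene on several lists counts in each. These lists were picked for having no call in the other direction, so the counts are partly set by that choice and are no test of direction. Markers of the other cells of the cord were examined in the same libraries. Of 15 endothelial and pericyte genes 1 fell (6.67% called, against 8.98% of all genes tested). It was the smooth muscle gene Tagln, at 10.1, 12.4, 12.4 and 11.6 TPM in control and 6.93, 7.97, 6.51 and 8.98 TPM in cKO. The list summed to 345 to 376 TPM in control and 357 to 390 TPM in cKO. Of 10 meningeal fibroblast genes tested, the proteoglycan gene Dcn rose, at 8.73, 10.8, 8.21 and 10.7 TPM in control and 14.6, 15.6, 14.9 and 13.4 TPM in cKO, and Ptgds fell. Without Ptgds the fibroblast markers summed to 35.8 to 42.1 TPM in control and 40.7 to 46.8 TPM in cKO. Of 10 ependymal genes Mia rose, at 11.5, 15.3, 9.13 and 12.998 TPM in control and 21.6, 25.6, 25.4 and 25.1 TPM in cKO, and Nnat fell, at 135, 138, 130.3 and 134 TPM in control and 113, 107, 94.1 and 99.7 TPM in cKO, while the list summed to 186 to 230.2 TPM in control and 187 to 214 TPM in cKO. Of 6 Schwann cell genes tested Pmp22, a peripheral myelin protein, fell by 0.15, though not without control replicate 1, and the list summed to 157 to 170.0 TPM in control and 145 to 149 TPM in cKO. Limma called 0 of 8 blood and leukocyte genes tested, with 0 at an unadjusted p under 0.05, and 10 of the 20 on that list were under 1 TPM in every mouse. Those markers summed to 1101 to 2742 TPM in control and 1085 to 5137 TPM in cKO, with cKO replicate 4 the highest. None of these lists had a gene at 0 in all 8 mice, and the part of any of these cells in the changes above was not tested.

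Matrix and growth factor genes changed singly. Limma called 0 of 21 collagen and basement membrane genes, with 3 at an unadjusted p under 0.05 (Agrn -0.20 ± 0.06 and Col9a3 -0.23 ± 0.09, the smallest p). Over all genes tested, 3482 of 15285 had such a p. Of 23 genes of perineuronal matrix and metalloproteases, 3 rose and 1 fell (4 and 0 without control replicate 1, 2 and 2 after rescaling without mitochondrially encoded genes). Ncan, the proteoglycan neurocan that astrocytes and neurons secrete, was at 14.4, 13.3, 11.3 and 13.2 TPM in control and 21.9, 20.9, 24.1 and 20.1 TPM in cKO. Adamts9 rose with it, the inhibitor gene Timp4 rose by 0.29, and Adamts4, a protease of oligodendrocytes, fell by 0.33. Of 13 insulin-like growth factor genes 2 rose, Igfbp2 and Igfbp4, the latter by 0.64 and lost in 7 of 20 alternatives. Of 37 cytosolic ribosomal protein genes, 7 rose and 0 fell (5 without control replicate 1, 4 with median-of-ratios rescaling and 3 after rescaling without mitochondrially encoded genes), with Rps2 at 374, 373, 379.9 and 363 TPM in control and 419.97, 440.1, 413 and 436 TPM in cKO. Limma thus called 18.9% of the ribosomal list, against 8.98% of all genes tested and 25.8% of genes at 100 TPM or more. Hox genes mark the level of the cord. Of 15 anterior Hox genes Hoxb8 rose (6.67% called), at 172, 171, 164 and 176 TPM in control and 190.2, 202, 197 and 203 TPM in cKO. At an unadjusted p under 0.05, limma had 8 of the 15 higher and 0 lower, beside 3482 of all 15285 genes in either direction. It called 0 of 10 posterior Hox genes, with 2 at an unadjusted p under 0.05 (Hoxd9 0.18 ± 0.06, Hoxb9 0.09 ± 0.04).

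**Figure D4:**
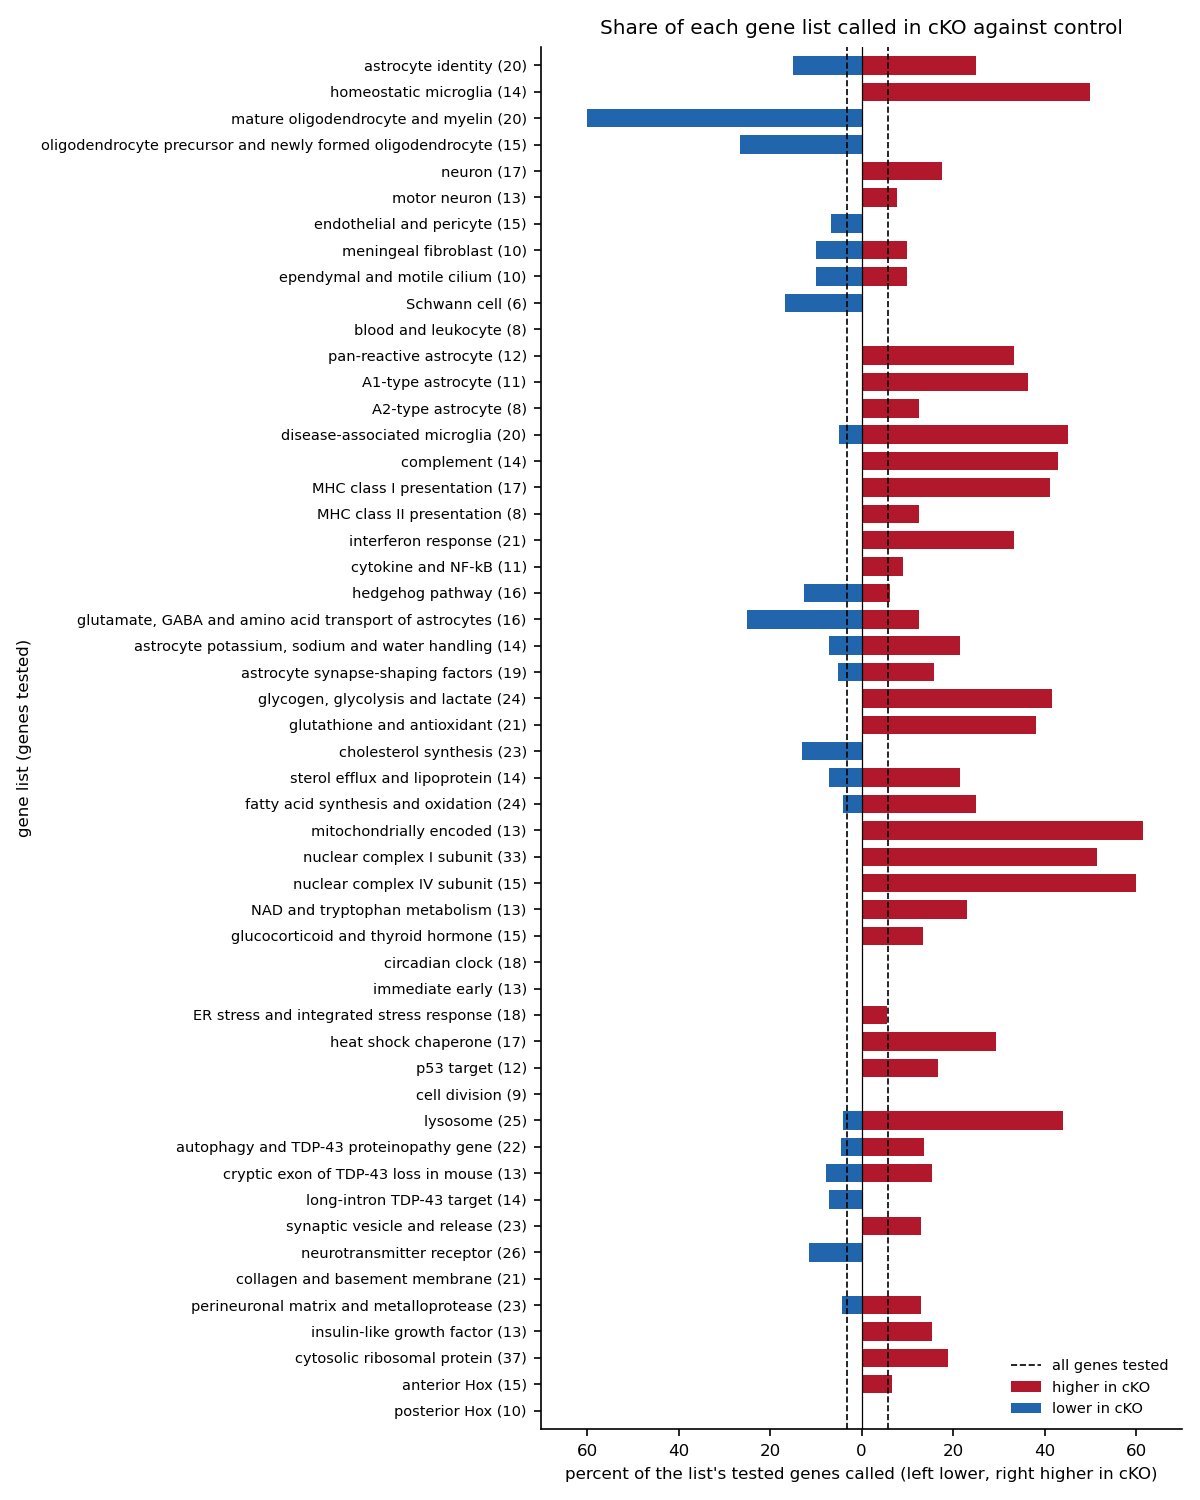
Bars give, for each of the 52 gene lists, the percent of its tested genes (number in parentheses) called higher in cKO, to the right, or lower, to the left; dashed lines give the same for all genes tested, 5.74% and 3.23%. Myelin has the longest bar to the left (12 of 20), and mitochondrially encoded, complex IV and complex I genes the longest to the right (8 of 13, 9 of 15 and 17 of 33). The dashed lines take no account of level, and 25.8% of genes at 100 TPM or more were called in either direction.

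In absolute terms, the largest gains in TPM were mostly those of mitochondrial transcripts. After mt-Nd4l, at 20536, 18964, 18356 and 22173 TPM in control and 26792, 24829, 25830.4 and 27959 TPM in cKO, came mt-Co1, mt-Atp6, mt-Nd6, mt-Nd2, mt-Nd4, mt-Nd5, mt-Cytb and Atp5b, with a pseudogene of predicted name among them. Among the largest losses in TPM were those of Ptgds, Glul, Cnp, Mag, Aplp1, Sept4, Tubb4a, Ptma and Stmn4. Aplp1, a relative of the amyloid precursor, was at 979, 944, 947 and 915 TPM in control and 786, 821, 829 and 813 TPM in cKO, and the septin gene Sept4 at 510.2, 511, 547 and 494 TPM in control and 405, 399, 418 and 377 TPM in cKO. The cKO mice were below the control mice for all of these.

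Called genes were also described by their length and place in the genome. Among protein-coding genes, those of the shortest span in the GENCODE M21 annotation (the first of 4 equal groups, up to 10406 bp) had 350 rises and 74 falls among 3585 genes, and those of the longest (from 61360 bp) had 107 rises and 187 falls. The median TPM of these groups was 19.9 and 16.03. With median-of-ratios rescaling the counts were 285 and 86 among the shortest genes and 84 and 217 in the longest. After rescaling without mitochondrially encoded genes they were 198 and 121, and 49 and 311. Rises thus outnumbered falls among the shortest genes and falls outnumbered rises among the longest under all 3 scalings. The span is a property of the gene and not of the RNA measured, and exon length differed between these groups too, with medians of 2445 and 7638 bp.

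**Figure D5:**
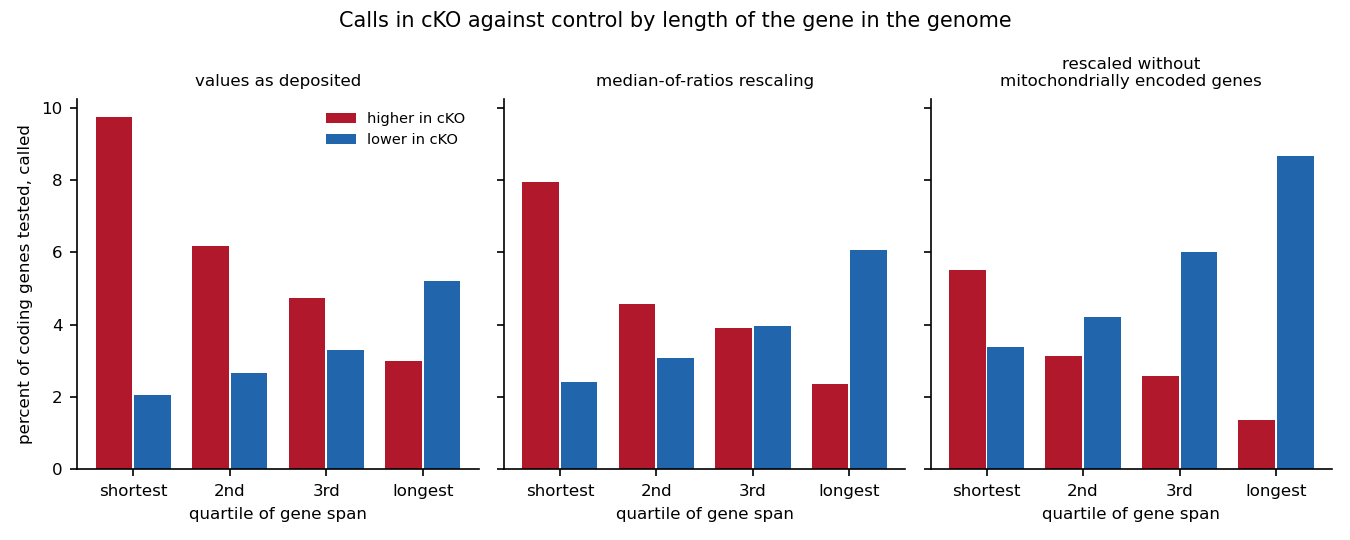
Bars give the percent of protein-coding genes called higher (red) or lower (blue) in cKO, in 4 equal groups of gene span from shortest to longest, for the deposited values and for both rescalings. The red bars shrink and the blue bars grow from the shortest to the longest group in all 3 panels, from 9.76% and 2.06% to 2.98% and 5.22% for the deposited values.

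By chromosome, the share of genes called was 7.28% on chromosome 16 and 11.9% on chromosome 19, the lowest and highest among autosomes. The longest runs of called genes, each within 500 kb of the next, lay in gene-dense regions. These runs were picked for the most calls and begin and end at a called gene. Their shares are thus partly set by that choice, and 8.98% of all genes tested were called. On chromosome 19, 3908863 to 6398459, 15 of 106 tested genes were called, from Ndufs8 to Pygm, 7 higher and 8 lower. On chromosome 17, 23673596 to 24897502, 13 of 50 were called, 12 of them higher, among them Rps2 and Ndufb10. A further run on that chromosome, 25565892 to 27636669, had 11 of 57 called, 10 of them higher. On chromosome 15, 75551268 to 76699686, 10 of 51 were called, Naprt among them, and between 77915047 and 79777849, 10 of 53, with Sox10 among the falls.

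A difference in the effect between sexes was tested as an interaction of genotype and labelled sex. Limma called 1 gene (0.00654%), Gm16867, a gene of predicted name, and gave 596 genes (3.90%) an unadjusted p under 0.05. Gm16867 was at 1.13, 1.20, 9.92 and 8.72 TPM in control and 18.1, 20.2, 11.1 and 21.1 TPM in cKO; controls 1 and 2 are labelled male and 3 and 4 female, and cKO 2 and 4 male and 1 and 3 female. Its difference between cKO and control was 0.59 in females and 3.66 in males on the log2 scale (limma adjusted p = 0.0304). The cHet mice held 18.0, 19.4, 12.6 and 16.7 TPM of Gm16867. With both sexes together, its log2 difference from control was 2.07 in cHet, not called there, beside 2.13 in cKO. Control replicate 1, whose Y-linked genes were at the level of females, had the low value of control replicate 2. Without that library limma called 0 genes (smallest adjusted p 0.191, 532 genes at an unadjusted p under 0.05). Among genes with a full name, the next smallest p values were those of Adgre5, an adhesion receptor of leukocytes, with a log2 difference of 0.31 in females and -0.52 in males, and of Cyp4f13, with -0.53 in females and 0.01 in males. Hes5, a Notch effector, differed by 0.82 in females and -0.79 in males, Gata2 by -0.76 and 1.01, Rprd2 by -0.46 and 0.30, Mrpl38 by 0.51 and -0.02 and Rfesd by 0.30 and -0.18, none of them called.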

How the data were processed

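RNA was extracted with Trizol from frozen spinal cord and sequenced from TruSeq libraries, per the labels' protocols, in 12 mice. The authors used kallisto 0.44.0 and sleuth 0.30.0 with GRCm38, per the submitters' processing notes; the sources used here name no annotation release, filter or strand. The authors deposited normalized TPM per gene, a signal that is never negative and not a count; library sums differ, so a scaling between libraries is part of the values. The authors also deposited p-values and q-values from likelihood ratio and Wald tests, and a Wald estimate in a unit of its own, of which only the sign was used.

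From the deposited signal, log2(TPM + 0.5) was fitted with limma 3.58.1 (R 4.3.3; lmFit, contrast, eBayes with trend) on all 12 mice without covariates. Genes whose mean reached 1 TPM in the 8 cKO and control mice were tested, two-sided, with Benjamini-Hochberg adjustment over all of them, and called at an adjusted p under 0.05. A genotype by labelled sex term was fitted in the same way. Values with a single number per mouse used an exact permutation test over 70 assignments. SE is that of limma, and errors are between mice. The fit was tested on simulated data. The alternatives were other pseudocounts (0.1 and 1), no minimum, a minimum of 5 TPM, other scalings, fits and samples, and each mouse left out.

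Named were Tardbp and Gfap; the 25 largest rises and 25 largest falls among called genes whose groups do not overlap; the 10 rises and 10 falls with the largest TPM difference; up to 4 called members of each of 52 lists by adjusted p, or the 2 with the smallest p where none was called; up to 10 genes for the sex term; and the 5 longest runs of neighbouring calls. Further list members were chosen after their values were seen. Genes with predicted names were mostly counted only, and a few genes taken by the rule are left unreported. The members and lists were chosen with earlier results of these data known, so the list counts are descriptions. Gene positions and spans come from GENCODE M21, which holds 35550 of the 36121 identifiers; 571 are not in it.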

Additional observations from a re-analysis of the deposited data

Results flagged for a closer look

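For the named genes reported here, the highest or lowest mouse of a group of 4 was marked where its gap to the next mouse exceeded Dixon's critical share of the range of the group. This marked 30 of 424 groups, and chance alone marks about 5%. Among the controls, replicate 2 was the highest for Ddx3y (34.3 TPM) and Eif2s3y (37.7), the Y-linked genes for which control replicate 1, also labelled male, was at the level of females. It was the highest for Hspb1 (54.3 TPM) too, and the lowest for Gfap (1092) and Ptma (695). Control replicate 1 was the lowest for Naprt (6.95 TPM) and Selplg (17.6). Control replicate 3 was the highest for Klri1 (3.15 TPM), S100a9 (4.45) and Gm35106 (1.22) and the lowest for Stard4 (22.03), and control replicate 4 the highest for Egr3 (4.27) and Gm11483 (1.33) and the lowest for Grin2c (6.003).

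In cKO, replicate 1 was the highest for Trpm5 (9.05 TPM) and the lowest for Etnppl (9.05), Mia (21.6) and Atp5b (3146). Replicate 2 was the highest for Ndufa7 (336) and Psmb8 (8.76) and the lowest for Gria1 (37.6). Replicate 3 was the highest for Ctsd (355) and Emp1 (8.003) and the lowest for Slc7a11 (1.36), Lgr6 (1.55) and Serping1 (5.37). Replicate 4 was the highest for Ccdc3 (14.1) and Fdft1 (58.2) and the lowest for Tardbp (140.5) and Amhr2 (10.2).

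The effect on Gm16867 differed between labelled sexes, being -3.07 on the log2 scale in females minus males (limma adjusted p = 0.0304); without control replicate 1 the difference was -3.04 (limma adjusted p = 0.191).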

How the results depend on the processing

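The 20 alternatives left the total count of calls within 1.5 times of 1372, except where a mouse was left out (814 to 1143 calls; 906 without control replicate 2, 814 without cKO replicate 2 and 890 without cKO replicate 4). Leaving out a mouse gave 502 to 749 rises and 304 to 394 falls. Rescaling without mitochondrially encoded genes gave 473 rises and 820 falls in place of 878 and 494; over all genes the median log2 change was then -0.04 in place of 0.01. For the genotype by sex term, limma called 0 genes with a pseudocount of 1 TPM, with only the 8 mice and without trend (601, 709 and 601 genes at an unadjusted p under 0.05), and 20 genes without the minimum. Leaving out a mouse gave 0 to 6 calls of that term. They were 6 without control replicate 2 and 0 without control replicate 1, cKO replicate 2 or cKO replicate 4 (532, 679 and 500 at an unadjusted p under 0.05). Apart from these constructions the cause of such differences was not tested. Of 179 called genes that were named, 123 kept the call under every alternative and 56 lost it in at least 1 of them, 17 of these only when a mouse was left out. None of the 179 changed direction under the alternatives run, and 28 lost the call without control replicate 1. No paired analysis was possible because the labels give no replicate numbers shared between groups. Depth is unknown, so the precision of low genes rests on the spread between mice.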
